A study of Mus musculus with 32 samples.

Results

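The extracellular matrix genes and matrix proteases of the injured mouse brain are described here. They are the 67 rows of a table of 5582 genes whose symbol is that of a collagen, a laminin, a matrix metalloproteinase (Mmp) or its inhibitor (Timp), an Adamts or Adamts-like protein, a lysyl oxidase, a thrombospondin, a fibrillin or fibulin, tenascin C, fibronectin, versican, brevican or neurocan, a link protein, or decorin, lumican or biglycan. They were picked from the table by a rule on the symbol, which was set with earlier results of these data known. The authors had limited the table itself by their TBI against sham p-value.

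All animals were C57BL/6 mice in which human APOE had been placed in the locus of mouse Apoe (targeted replacement), and all had a craniotomy of 4.5 mm. The 4 groups were APOE4 with TBI (8 animals), APOE3 with TBI (8), APOE4 with sham surgery (7) and APOE3 with sham surgery (7). TBI was a single controlled cortical impact to a depth of 1 mm, made with a 3 mm tip. Sham surgery stopped at the craniotomy, so that the comparison is of impact added to craniotomy. Bulk RNA of each animal came from its cortex and hippocampus around the lesion at day 14. The sample titles also carry the letter Y and either F or M, which the labels do not spell out, and age was not given in the labels used here. 2 further libraries, whose title and characteristics disagree on injury or on genotype, were left out of the groups.

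The brain's matrix is largely made of hyaluronan, hyalectans and link proteins, which form a loose mesh and, around some neurons, perineuronal nets. Basement membranes of type IV collagen and laminin wrap the vessels and the surface of the brain, and fibrillar collagens are normally confined to meninges and larger vessels, where fibroblasts make them. After an impact, fibroblasts, vascular cells, reactive astrocytes and phagocytes lay down a scar. Metalloproteinases cut matrix proteins, and Timps inhibit the metalloproteinases.

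The listed rows held between 2262242 and 8606717 counts per library. These totals formed a shallow class of 16 libraries and a deep class of 16, and the assigned animals of each group fell into both. The members had a median of 95.8 counts per library, and all 67 passed the filter on low counts, which left 5371 rows. Mmp3 and Mmp12, with few or no counts in sham animals, passed it only through TBI animals. Levels are given as CPM, the TMM-scaled counts brought to a common total of listed rows, and are not comparable between genes of different length. The authors had kept rows by their own TBI against sham comparison, so injury tests on these rows are a description and not independent evidence. Below, a gene is called measured if it is among these rows. A listed gene that did not differ between TBI and sham can be missing from them. A count of measured genes therefore does not stand for its whole list or family.

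At day 14 after the impact, most of the matrix genes were higher than after sham surgery. Over both genotypes 62 of the 67 rose, 2 fell (Hapln4 and Mmp17) and 3 laminin genes did not pass the test (edgeR's quasi-likelihood test, Benjamini-Hochberg adjusted p under 0.05). Of all rows tested, 94.1% passed, of which 48.2% of all rows were higher and 45.9% lower, so the number of members called is close to the background and their direction is what differs from it. The median log2 difference of the members was 0.58, against 0.10 over all rows tested, and 65 of the 67 lay above 0. There were 11 members at least 2-fold higher, against 8.27% of all rows. The authors' deposited table gave 65 members a positive and 2 a negative log2 coefficient.

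**Figure D1:**
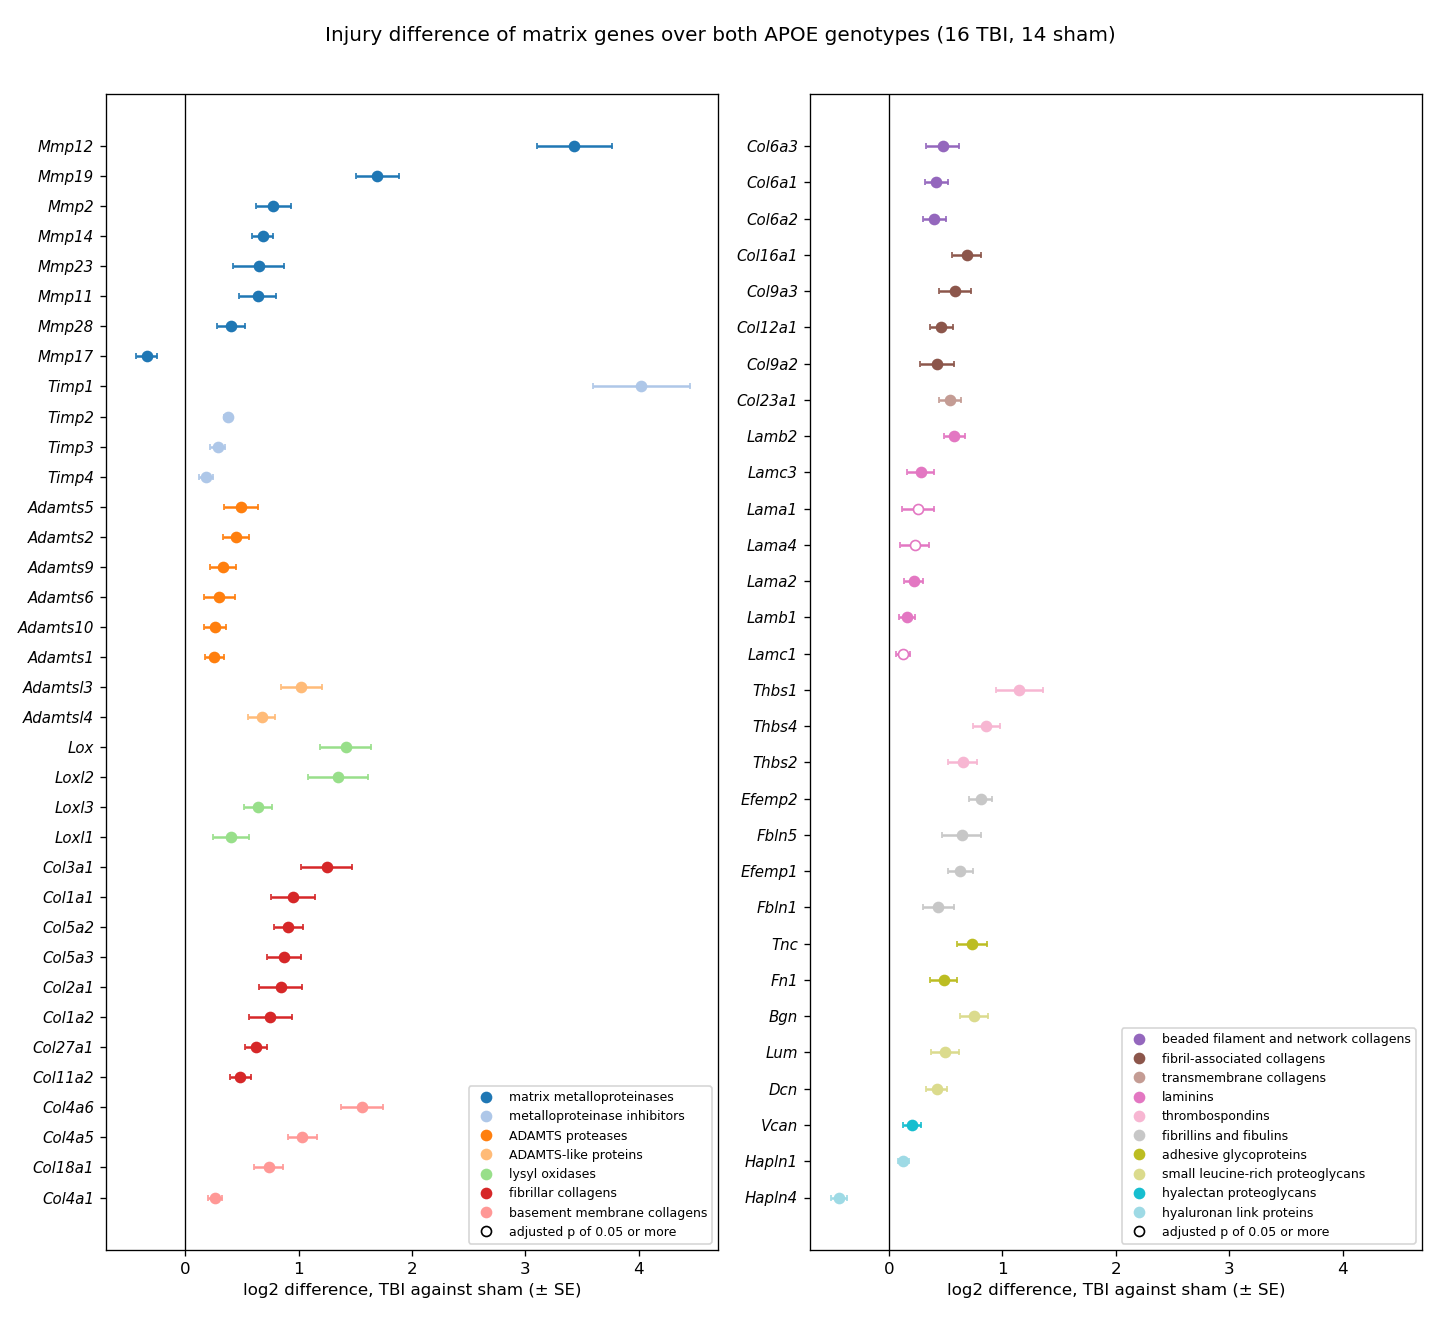
Log2 difference between TBI and sham animals for 66 of the 67 matrix genes, grouped by role, with bars of 1 standard error. Filled points passed an adjusted p of 0.05 and the 3 open points (Lama1, Lama4 and Lamc1) did not. Mmp3, which had no count in any sham animal, is not drawn, and only Hapln4 and Mmp17 lie left of 0.

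Markers of other cells moved with the matrix genes. Being called is the background here, since 48.2% of all rows tested were called higher and 45.9% lower. Only the shared direction of a list differs from that. Of 21 markers of meningeal and perivascular fibroblasts, 13 were among the rows tested and 12 of those rose, with Serping1 at a log2 difference of 1.65 ± 0.17, Igf2 at 0.79 ± 0.16, Slc13a4 at 0.52 ± 0.19 and Nnat at 0.51 ± 0.08. Foxc1 did not pass the test. The summed level of these 13 markers lay between 2497 and 6000.5 CPM (median 2965) in TBI animals and between 1719 and 3729 CPM (median 2194) in sham animals, so the ranges overlapped. In the animal with the highest sum, Ptgds alone held 3921 CPM of it, so the sum there is mostly that of a single gene. The 12 markers of astrocytes all rose (sums between 15096 and 22631 CPM (median 18065) in TBI animals and between 12179 and 14522 CPM (median 13518) in sham animals), as did the 12 measured of 13 markers of microglia and macrophages (sums between 1243 and 2275 CPM (median 1524) in TBI animals and between 683 and 937 CPM (median 802) in sham animals), and neither pair of ranges overlapped. Among the pericyte and smooth muscle markers 5 of 15 were in the rows analysed here, as were 5 of 16 endothelial markers, and these rose. The markers missing from the rows may not have differed.

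The 9 measured of 11 neuronal markers fell, with sums between 17294 and 24163 CPM (median 22381) in TBI animals and between 23835 and 27452 CPM (median 26224) in sham animals. None of the listed markers of oligodendrocytes or choroid plexus was among the rows analysed here. Ms4a7 of the microglia and macrophage list was the only listed marker at 0 in any animal, and no marker was at 0 in a whole group. The part of these cell types in the matrix differences was not tested, and in bulk tissue more cells of a type and more RNA per cell cannot be told apart.

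Fibrillar collagens form the tensile fibres of connective tissue. All 8 measured genes rose, with a median log2 difference of 0.86. Type III collagen is made from Col3a1 alone and is an early component of scars. Col3a1 lay between 15.8 and 59.7 CPM (median 32.4) in APOE4 TBI animals and between 13.3 and 84.3 CPM (median 23.1) in APOE3 TBI animals. In sham animals, Col3a1 lay between 8.44 and 20.6 CPM (median 13.9) with APOE4 and between 7.08 and 28.2 CPM (median 12.96) with APOE3. The groups overlapped, and 7 of 16 TBI animals lay above the highest sham. Col3a1 was 2.37-fold higher (log2 difference 1.25 ± 0.22 SE, edgeR adjusted p = 1.37e-05) after TBI. Col1a1 encodes a chain of type I collagen, the main fibrillar collagen of mature scars. Col1a1 lay between 32.2 and 81.1 CPM (median 44.5) in APOE4 TBI animals and between 24.8 and 143 CPM (median 40.6) in APOE3 TBI animals. In sham animals, Col1a1 lay between 16.5 and 42.1 CPM (median 27.9) with APOE4 and between 16.8 and 37.9 CPM (median 27.7) with APOE3. 8 of 16 TBI animals lay above every sham animal. Col1a1 was 1.94-fold higher (log2 difference 0.95 ± 0.20 SE, edgeR adjusted p = 8.37e-05). Its partner chain Col1a2 differed by 0.75 ± 0.19 on the log2 scale. Col5a2, a chain of type V collagen, which starts fibrils, differed by 0.91 ± 0.13, and Col5a3 by 0.87 ± 0.15. Col27a1 differed by 0.62 ± 0.10, and the genes best known from cartilage, Col2a1 and Col11a2, by 0.84 ± 0.19 and 0.49 ± 0.09.

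Basement membrane collagens also rose, 4 of 4, with a median log2 difference of 0.88. Col4a5 and Col4a6 encode chains of type IV collagen that assemble together in some basement membranes and share a divergent promoter region. They lie head to head on chromosome X (chrX:141475370-141689236 and chrX:141165403-141474095, GRCm38.p6), with the RefSeq starts used here 1343 bases apart. Col4a6 lay between 5.89 and 23.6 CPM (median 9.85) in APOE4 TBI animals and between 5.19 and 20.7 CPM (median 7.43) in APOE3 TBI animals. In sham animals, Col4a6 lay between 2.49 and 5.19 CPM (median 3.29) with APOE4 and between 2.15 and 7.30 CPM (median 3.24) with APOE3. 11 of 16 TBI animals lay above every sham animal. With APOE4 alone all 8 TBI animals lay above every sham, and with APOE3 alone 4 of 8 did so. The share of all rows that separate within a single genotype was not counted. The injury response of Col4a6 was not called different between the genotypes. Col4a6 was 2.95-fold higher (log2 difference 1.56 ± 0.19 SE, edgeR adjusted p = 1.86e-08). Col4a5 lay between 10.4 and 34.4 CPM (median 20.9) in APOE4 TBI animals and between 14.2 and 45.4 CPM (median 21.9) in APOE3 TBI animals. In sham animals, Col4a5 lay between 6.75 and 14.5 CPM (median 11.999) with APOE4 and between 7.47 and 15.9 CPM (median 10.7) with APOE3. Here 14 of 16 TBI animals lay above every sham. Col4a5 was 2.05-fold higher (log2 difference 1.03 ± 0.13 SE, edgeR adjusted p = 2.55e-08). Col4a1, which encodes a chain found in nearly all basement membranes, differed by only 0.27 ± 0.06 on the log2 scale. Col18a1, the vascular basement membrane collagen from which endostatin is cut, differed by 0.73 ± 0.13.

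The remaining collagens also rose. The 3 chains of type VI collagen, which forms beaded microfilaments between cells and fibres, all rose. Col6a3 lay between 5.09 and 11.01 CPM (median 7.23) in APOE4 TBI animals and between 5.94 and 13.03 CPM (median 7.24) in APOE3 TBI animals. In sham animals, Col6a3 lay between 3.23 and 7.43 CPM (median 4.68) with APOE4 and between 4.10 and 8.30 CPM (median 6.21) with APOE3. The groups overlapped, and Col6a3 was 1.39-fold higher (log2 difference 0.47 ± 0.15 SE, edgeR adjusted p = 0.00409). Col6a1 lay between 45.4 and 116 CPM (median 80.3) in APOE4 TBI animals and between 75.003 and 177 CPM (median 101) in APOE3 TBI animals. In sham animals, Col6a1 lay between 40.7 and 80.9 CPM (median 67.3) with APOE4 and between 44.5 and 129.5 CPM (median 75.3) with APOE3. Only 2 of 16 TBI animals lay above the highest sham, and Col6a1 was 1.34-fold higher (log2 difference 0.42 ± 0.10 SE, edgeR adjusted p = 0.000369). Col6a2 differed by 0.40 ± 0.10 on the log2 scale.

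The 4 collagens that sit on the surface of fibrils rose, with a median log2 difference of 0.52. Col16a1 lay between 28.9 and 64.5 CPM (median 40.5) in APOE4 TBI animals and between 37.99 and 97.8 CPM (median 43.9) in APOE3 TBI animals. In sham animals, Col16a1 lay between 22.1 and 33.7 CPM (median 27.5) with APOE4 and between 18.4 and 45.6 CPM (median 29.2) with APOE3. 6 of 16 TBI animals lay above every sham, and Col16a1 was 1.61-fold higher (log2 difference 0.68 ± 0.13 SE, edgeR adjusted p = 2.85e-05). Col9a3 lay between 21.7 and 72.2 CPM (median 31.2) in APOE4 TBI animals and between 20.3 and 52.005 CPM (median 28.3) in APOE3 TBI animals. In sham animals, Col9a3 lay between 16.6 and 47.02 CPM (median 19.99) with APOE4 and between 15.1 and 18.9 CPM (median 17.8) with APOE3. Over both genotypes the ranges overlapped and 2 of 16 TBI animals lay above every sham, while with APOE3 alone all 8 TBI animals did so. Other members, among them Tnc and Bgn, also separated with APOE3 alone, and the share of all rows that do so was not counted. The injury response of Col9a3 was not called different between the genotypes. Col9a3 was 1.50-fold higher (log2 difference 0.58 ± 0.14 SE, edgeR adjusted p = 0.000554). Col12a1 differed by 0.46 ± 0.10 on the log2 scale. Col9a2 differed by 0.42 ± 0.15, and by 0.28 without APOE3 TBI replicate 8. Col23a1 encodes a collagen that spans the cell membrane. Col23a1 lay between 37.6 and 64.5 CPM (median 49.8) in APOE4 TBI animals and between 47.2 and 109 CPM (median 62.7) in APOE3 TBI animals. In sham animals, Col23a1 lay between 25.9 and 41.1 CPM (median 36.1) with APOE4 and between 32.6 and 58.6 CPM (median 45.2) with APOE3. 8 of 16 TBI animals lay above every sham, and Col23a1 was 1.45-fold higher (log2 difference 0.54 ± 0.10 SE, edgeR adjusted p = 2.05e-05).

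Laminins, the trimeric proteins that join basement membranes to cells, differed least among the larger groups: 4 of 7 rose and 3 did not pass, with a median log2 difference of 0.23. Lamb2, the beta chain of vascular and synaptic laminins, stood apart. Lamb2 lay between 70.4 and 113 CPM (median 89.3) in APOE4 TBI animals and between 73.4 and 170.4 CPM (median 83.4) in APOE3 TBI animals. In sham animals, Lamb2 lay between 51.3 and 72.3 CPM (median 61.7) with APOE4 and between 53.8 and 69.7 CPM (median 62.1) with APOE3. The ranges nearly separated, since 15 of 16 TBI animals lay above every sham. Lamb2 was 1.49-fold higher (log2 difference 0.58 ± 0.09 SE, edgeR adjusted p = 3.17e-06). Lamc3 lay between 11.3 and 24.6 CPM (median 12.995) in APOE4 TBI animals and between 11.1 and 26.3 CPM (median 14.4) in APOE3 TBI animals. In sham animals, Lamc3 lay between 8.44 and 17.6 CPM (median 12.98) with APOE4 and between 10.04 and 18.9 CPM (median 12.6) with APOE3. These ranges overlapped, and Lamc3 was 1.21-fold higher (log2 difference 0.28 ± 0.12 SE, edgeR adjusted p = 0.0323). That call was lost without any of APOE4 TBI replicates 3 or 8, APOE3 TBI replicate 8, APOE3 sham replicates 3 or 7, APOE4 sham replicates 1 or 4 (adjusted p 0.0534 to 0.117). Lama2 (log2 difference 0.22 ± 0.08) lost its call without any of APOE4 TBI replicates 3 or 7, APOE3 TBI replicate 8 (log2 difference 0.14 to 0.18, adjusted p 0.0504 to 0.0788). Lamb1 (0.16 ± 0.07) lost its call in 18 of 30 settings that each left out 1 animal, namely APOE4 TBI replicates 3, 5, 6 or 7, APOE3 TBI replicates 4, 1, 6 or 8, APOE3 sham replicates 1, 2, 4, 5 or 7, APOE4 sham replicates 1, 3, 4, 5 or 6 (adjusted p 0.0501 to 0.133).

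Among the laminins that did not pass, Lamc1 differed by 0.13 ± 0.06 (adjusted p = 0.0505), Lama1 by 0.26 ± 0.14 (adjusted p = 0.0795) and Lama4 by 0.23 ± 0.13 (adjusted p = 0.0923, edgeR for each). Their TBI and sham ranges overlapped almost entirely: 1, 3 and 2 of 16 TBI animals lay above the highest sham for Lamc1, Lama1 and Lama4. Without APOE3 TBI replicate 8 the log2 difference of Lamc1 was 0.07 and that of Lama4 0.11.

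The proteases and their inhibitors held the members with the greatest differences, and Mmp3, Mmp12 and Timp1 are shown with the 250 bases upstream of their RefSeq start (GRCm38.p6, written 5′ to 3′ on the gene's strand). Capitals mark a match to TGAGTCA or to TGACTCA, its reverse complement, which is the motif known for AP-1 transcription factors; Timp1 holds no match in its window. Mmp3 is on the plus strand at chr9:7445572-7445821, Mmp12 on the plus strand at chr9:7347124-7347373 (1 of its 2 annotated starts) and Timp1 on the plus strand at chrX:20869916-20870165.
Mmp3: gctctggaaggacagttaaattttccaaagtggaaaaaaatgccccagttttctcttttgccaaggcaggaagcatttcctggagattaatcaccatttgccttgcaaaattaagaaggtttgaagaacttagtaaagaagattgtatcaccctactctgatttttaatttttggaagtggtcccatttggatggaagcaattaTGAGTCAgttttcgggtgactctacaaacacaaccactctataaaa
Mmp12: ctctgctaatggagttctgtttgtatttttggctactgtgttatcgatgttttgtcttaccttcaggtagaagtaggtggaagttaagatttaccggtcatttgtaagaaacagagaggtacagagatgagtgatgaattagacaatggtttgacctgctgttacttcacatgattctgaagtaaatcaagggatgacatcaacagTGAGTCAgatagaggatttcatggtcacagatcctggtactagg
Timp1: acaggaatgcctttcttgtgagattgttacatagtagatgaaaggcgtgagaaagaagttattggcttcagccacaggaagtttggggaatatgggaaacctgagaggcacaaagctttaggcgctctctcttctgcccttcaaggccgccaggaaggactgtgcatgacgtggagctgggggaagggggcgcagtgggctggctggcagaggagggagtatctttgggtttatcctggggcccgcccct

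The matches lie 46 to 40 bases upstream of the Mmp3 start and 44 to 38 bases upstream of that of Mmp12. The 43 members with a promoter in the table used here held the motif in 3 cases (6.98%), against 5.16% of 27025 mouse genes, so that such a match is not particular to these genes. A match describes letters in a window and not a bound site.

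Mmp3 encodes stromelysin-1, a secreted protease that cuts many matrix proteins and activates other metalloproteinases. It had 0 counts in all 14 sham animals and 391 counts over the 16 TBI animals, 14 of which had at least 1. Levels in APOE4 TBI animals had a median of 1.12 CPM and a highest value of 22.1 CPM, and those in APOE3 TBI animals lay between 0.420 and 20.8 CPM (median 4.74). Mmp3 was at least 113-fold higher after TBI, taking 3 counts over all sham animals as the floor (edgeR adjusted p = 0.000195). Since Mmp3 passed the filter on low counts only through TBI animals, the p-value is a description and not evidence. APOE3 TBI replicate 4 held 170 of the counts, and without it the bound was 71.5-fold. Other left-out animals gave bounds between 98.9-fold and 126-fold. Bounds cover counting error only.

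Mmp12, macrophage metalloelastase, was 1 of only 2 members for which every TBI animal lay above every sham animal; of all rows tested, 5.59% separated in this way, and 0.596% lay wholly below the sham animals, as no member did. Mmp12 lay between 0.841 and 5.80 CPM (median 2.30) in APOE4 TBI animals and between 1.69 and 4.62 CPM (median 2.70) in APOE3 TBI animals. In sham animals, Mmp12 lay between 0 and 0.599 CPM (median 0.337) with APOE4 and between 0 and 0.810 CPM (median 0) with APOE3. Its 16 sham counts were spread over 7 of 14 animals. Mmp12 was 10.8-fold higher (log2 difference 3.43 ± 0.33 SE, edgeR adjusted p = 2.82e-10). It too passed the filter on low counts only through TBI animals, so its p-value and its separation are a description. Mmp19, a protease expressed in many tissues, was the next most changed: Mmp19 lay between 1.86 and 9.50 CPM (median 4.47) over TBI animals, against between 0.588 and 3.01 CPM (median 1.43) over sham animals. 14 of 16 TBI animals lay above every sham, and Mmp19 was 3.24-fold higher (log2 difference 1.69 ± 0.19 SE, edgeR adjusted p = 4.72e-09). Mmp14 is anchored in the cell membrane and activates pro-Mmp2. Mmp14 lay between 28.2 and 58.3 CPM (median 36.01) over TBI animals, against between 17.05 and 30.5 CPM (median 24.1) over sham animals. With 15 of 16 TBI animals above every sham, Mmp14 was 1.61-fold higher (log2 difference 0.68 ± 0.09 SE, edgeR adjusted p = 1.37e-07). Mmp2, gelatinase A, differed by 0.78 ± 0.15 on the log2 scale. Mmp11 differed by 0.64 ± 0.16, Mmp23 by 0.65 ± 0.23 and Mmp28 by 0.40 ± 0.13.

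Mmp17, a metalloproteinase held to the membrane by a lipid anchor, was the 1 metalloproteinase that fell. Mmp17 lay between 217 and 493 CPM (median 351) in APOE4 TBI animals and between 230.1 and 536 CPM (median 436) in APOE3 TBI animals. In sham animals, Mmp17 lay between 379 and 531 CPM (median 476) with APOE4 and between 415 and 592 CPM (median 549) with APOE3. 8 of 16 TBI animals lay below the lowest sham. Mmp17 was 1.27-fold lower (log2 difference -0.34 ± 0.09 SE, edgeR adjusted p = 0.00162). Per kilobase of exon it was also the most abundant metalloproteinase of the list, with 59.1 ± 13.8 CPM per kilobase in TBI animals and 74.8 ± 9.88 in sham animals (SD, n = 16 and 14), so the summed CPM of the 9 metalloproteinases was lower after TBI (median 467 CPM, against 534 CPM in sham animals) although 8 of them rose. The neuronal markers, whose sums are given above, fell in the same animals, and their part in the lower Mmp17 was not tested.

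All 4 inhibitors rose. Timp1, a secreted inhibitor of most metalloproteinases, was the other member for which the 16 TBI and 14 sham animals did not overlap. Timp1 lay between 3.52 and 39.9 CPM (median 6.74) in APOE4 TBI animals and between 4.39 and 30.6 CPM (median 13.1) in APOE3 TBI animals. In sham animals, Timp1 lay between 0.147 and 2.35 CPM (median 0.857) with APOE4 and between 0 and 1.13 CPM (median 0.893) with APOE3. Timp1 was 16.2-fold higher (log2 difference 4.02 ± 0.43 SE, edgeR adjusted p = 1.98e-09). Timp1 (chrX:20870166-20874737) lies within the span of Syn1, a neuronal gene on the opposite strand, as Timp4 lies within Syn2 and Timp3 within Syn3. The strand setting of the counting is not given, so whether reads of an overlapping gene entered these counts could not be checked. Syn1 itself was lower after TBI (log2 difference -0.15 ± 0.03). Timp2, which inhibits metalloproteinases and also takes part in the activation of pro-Mmp2, was by far the most abundant member per kilobase, with 325 ± 21.7 CPM per kilobase in TBI animals and 250.4 ± 24.7 in sham animals (SD, n = 16 and 14). Timp2 lay between 1074 and 1360.3 CPM (median 1243) in APOE4 TBI animals and between 1221 and 1401 CPM (median 1283) in APOE3 TBI animals. In sham animals, Timp2 lay between 841 and 1079 CPM (median 882) with APOE4 and between 886 and 1100.2 CPM (median 1061) with APOE3. 15 of 16 TBI animals lay above every sham, and Timp2 was 1.30-fold higher (log2 difference 0.38 ± 0.04 SE, edgeR adjusted p = 1.05e-09). Timp3, the inhibitor that binds to the matrix, differed by 0.29 ± 0.06 on the log2 scale, and Timp4 by 0.19 ± 0.06.

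**Figure D2:**
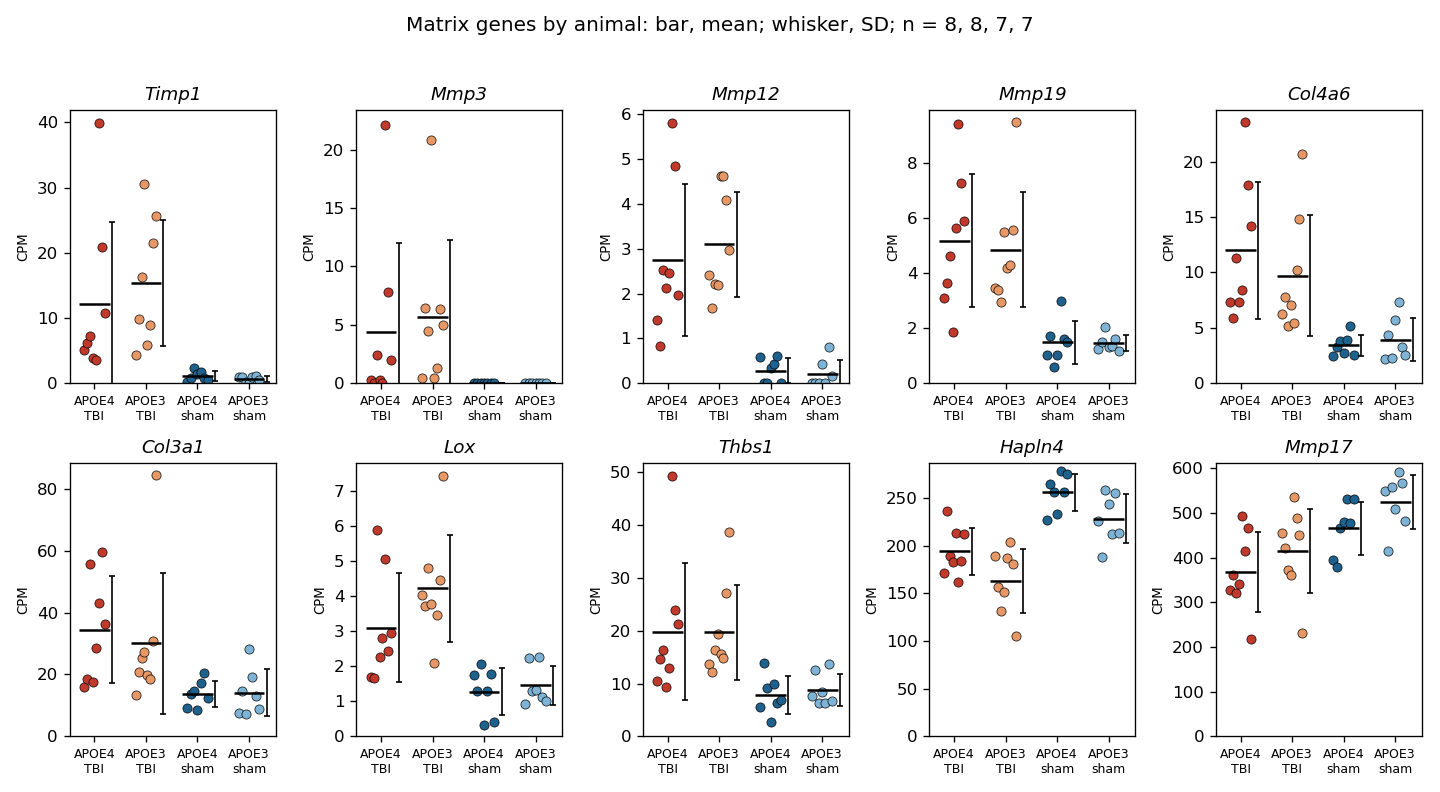
Level in CPM of selected matrix genes in each animal, with the groups in the order APOE4 TBI, APOE3 TBI, APOE4 sham and APOE3 sham (n = 8, 8, 7 and 7). Bars are means and whiskers 1 SD, cut at 0 where they would reach below it (Timp1 and Mmp3). Timp1 and Mmp12 show no overlap between TBI and sham animals, and Mmp3 is at 0 in every sham animal.

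The Adamts proteases rose in 6 of 6 cases, by less than the metalloproteinases (median log2 difference 0.32). Adamts5 is an aggrecanase, which cuts hyalectans. Adamts5 lay between 2.82 and 14.1 CPM (median 6.35) in APOE4 TBI animals and between 4.45 and 10.4 CPM (median 5.86) in APOE3 TBI animals. In sham animals, Adamts5 lay between 2.02 and 8.17 CPM (median 5.32) with APOE4 and between 3.86 and 5.29 CPM (median 4.86) with APOE3. The groups overlapped, and Adamts5 was 1.40-fold higher (log2 difference 0.49 ± 0.15 SE, edgeR adjusted p = 0.00405). Adamts2 removes the amino-terminal propeptide of fibrillar procollagens. Adamts2 lay between 19.6 and 39.1 CPM (median 26.1) in APOE4 TBI animals and between 18.9 and 41.6 CPM (median 27.2) in APOE3 TBI animals. In sham animals, Adamts2 lay between 16.8 and 23.9 CPM (median 20.8) with APOE4 and between 13.3 and 31.95 CPM (median 22.8) with APOE3. The groups overlapped here too, and Adamts2 was 1.36-fold higher (log2 difference 0.45 ± 0.12 SE, edgeR adjusted p = 0.000982). Adamts1 differed by 0.26 ± 0.08 on the log2 scale and Adamts9 by 0.33 ± 0.11. Adamts10 (0.26 ± 0.10) lost its call without APOE4 TBI replicate 3 or APOE3 TBI replicate 8 (log2 difference 0.17 to 0.21, adjusted p 0.0512 to 0.0630). Adamts6 (0.30 ± 0.14) lost its call without any of APOE4 TBI replicate 3, APOE3 TBI replicates 4 or 8, APOE3 sham replicates 1, 3, 5, 6 or 7, APOE4 sham replicates 4 or 6 (adjusted p 0.0512 to 0.109).

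Adamts-like proteins lack the protease domain and bind microfibrils. Both measured genes rose. Adamtsl3 lay between 6.45 and 17.4 CPM (median 9.99) in APOE4 TBI animals and between 9.27 and 18.2 CPM (median 10.5) in APOE3 TBI animals. In sham animals, Adamtsl3 lay between 2.77 and 8.71 CPM (median 4.41) with APOE4 and between 3.52 and 10.4 CPM (median 4.85) with APOE3. 9 of 16 TBI animals lay above every sham, and Adamtsl3 was 2.03-fold higher (log2 difference 1.02 ± 0.18 SE, edgeR adjusted p = 1.02e-05). Adamtsl4 lay between 13.98 and 29.01 CPM (median 21.99) in APOE4 TBI animals and between 15.9 and 32.03 CPM (median 19.7) in APOE3 TBI animals. In sham animals, Adamtsl4 lay between 10.7 and 17.4 CPM (median 14.5) with APOE4 and between 8.81 and 17.3 CPM (median 13.6) with APOE3. Here 14 of 16 did so, and Adamtsl4 was 1.59-fold higher (log2 difference 0.67 ± 0.12 SE, edgeR adjusted p = 9.07e-06).

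Lysyl oxidases crosslink collagen and elastin, and all 4 measured genes rose, with the highest median of the roles with at least 4 members (0.99 on the log2 scale). Lox lay between 1.68 and 5.91 CPM (median 2.62) in APOE4 TBI animals and between 2.10 and 7.45 CPM (median 3.92) in APOE3 TBI animals. In sham animals, Lox lay between 0.337 and 2.06 CPM (median 1.29) with APOE4 and between 0.922 and 2.28 CPM (median 1.29) with APOE3. 12 of 16 TBI animals lay above every sham, and Lox was 2.67-fold higher (log2 difference 1.42 ± 0.23 SE, edgeR adjusted p = 2.51e-06). Loxl2 lay between 1.42 and 8.70 CPM (median 2.71) in APOE4 TBI animals and between 1.35 and 4.84 CPM (median 2.66) in APOE3 TBI animals. In sham animals, Loxl2 lay between 0.571 and 1.997 CPM (median 0.860) with APOE4 and between 0.336 and 2.74 CPM (median 1.32) with APOE3. 8 of 16 TBI animals lay above every sham, and Loxl2 was 2.54-fold higher (log2 difference 1.34 ± 0.27 SE, edgeR adjusted p = 5.38e-05). Loxl3 differed by 0.64 ± 0.12 and Loxl1 by 0.40 ± 0.16. Lox and Loxl2 stood near the lower end of what was counted, with at most 15 and 11 counts in a sham animal.

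Thrombospondins are calcium-binding matrix proteins that act on cells more than they build fibres, and all 3 measured genes rose. Thbs1 can activate latent TGF-beta and is secreted by astrocytes. Thbs1 lay between 9.32 and 49.3 CPM (median 15.4) in APOE4 TBI animals and between 12.2 and 38.7 CPM (median 15.9) in APOE3 TBI animals. In sham animals, Thbs1 lay between 2.70 and 13.9 CPM (median 6.81) with APOE4 and between 6.31 and 13.8 CPM (median 7.68) with APOE3. 11 of 16 TBI animals lay above every sham. Thbs1 was 2.22-fold higher (log2 difference 1.15 ± 0.21 SE, edgeR adjusted p = 1.81e-05). Thbs4 lay between 31.95 and 65.5 CPM (median 43.2) in APOE4 TBI animals and between 41.8 and 88.1 CPM (median 66.8) in APOE3 TBI animals. In sham animals, Thbs4 lay between 18.1 and 36.5 CPM (median 27.3) with APOE4 and between 17.4 and 46.004 CPM (median 36.1) with APOE3. Likewise 11 of 16 TBI animals lay above every sham for Thbs4, which was 1.81-fold higher (log2 difference 0.86 ± 0.12 SE, edgeR adjusted p = 1.98e-07). Thbs2 differed by 0.65 ± 0.13.

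Fibulins connect elastic fibres, and their 4 measured genes rose (median log2 difference 0.64). Efemp2, fibulin-4, is needed for elastic fibre assembly and binds lysyl oxidase. Efemp2 lay between 20.4 and 40.2 CPM (median 27.1) in APOE4 TBI animals and between 25.4 and 44.1 CPM (median 30.8) in APOE3 TBI animals. In sham animals, Efemp2 lay between 12.2 and 22.8 CPM (median 15.9) with APOE4 and between 13.9 and 21.7 CPM (median 16.4) with APOE3. 15 of 16 TBI animals lay above every sham. Efemp2 was 1.75-fold higher (log2 difference 0.81 ± 0.10 SE, edgeR adjusted p = 5.03e-08). Fbln5 lay between 8.45 and 31.8 CPM (median 17.5) in APOE4 TBI animals and between 12.1 and 38.4 CPM (median 15.1) in APOE3 TBI animals. In sham animals, Fbln5 lay between 7.76 and 17.7 CPM (median 13.04) with APOE4 and between 6.61 and 15.1 CPM (median 10.7) with APOE3. These groups overlapped, and Fbln5 was 1.56-fold higher (log2 difference 0.64 ± 0.17 SE, edgeR adjusted p = 0.00129). Efemp1 differed by 0.63 ± 0.11 and Fbln1 by 0.44 ± 0.13. No fibrillin gene was among the rows analysed here.

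Both adhesive glycoproteins rose. Tnc, tenascin C, is made by reactive astrocytes and fibroblasts in healing tissue. Tnc lay between 10.2 and 30.5 CPM (median 16.9) in APOE4 TBI animals and between 12.8 and 32.4 CPM (median 18.9) in APOE3 TBI animals. In sham animals, Tnc lay between 8.82 and 15.9 CPM (median 11.4) with APOE4 and between 9.12 and 12.7 CPM (median 10.6) with APOE3. 10 of 16 TBI animals lay above every sham, and Tnc was 1.66-fold higher (log2 difference 0.73 ± 0.13 SE, edgeR adjusted p = 1.96e-05). Fn1, fibronectin, is a scaffold for collagen deposition. Fn1 lay between 137 and 227 CPM (median 178) in APOE4 TBI animals and between 146 and 406 CPM (median 160.4) in APOE3 TBI animals. In sham animals, Fn1 lay between 105 and 162 CPM (median 133) with APOE4 and between 95.6 and 170.0 CPM (median 152) with APOE3. The groups overlapped, and Fn1 was 1.39-fold higher (log2 difference 0.48 ± 0.12 SE, edgeR adjusted p = 0.000559).

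Of the components of the brain's own hyaluronan mesh, the link protein Hapln4 fell and Hapln1 and the proteoglycan versican rose, while aggrecan (Acan), a hyalectan of perineuronal nets outside the symbol rule, fell (log2 difference -0.70 ± 0.13). Hapln4, a link protein of perineuronal nets, was the member with the greatest fall. Hapln4 lay between 162 and 237 CPM (median 187) in APOE4 TBI animals and between 106 and 204 CPM (median 169) in APOE3 TBI animals. In sham animals, Hapln4 lay between 227 and 278 CPM (median 257) with APOE4 and between 188 and 259 CPM (median 226) with APOE3. 10 of 16 TBI animals lay below the lowest sham and none above the highest. Hapln4 was 1.36-fold lower (log2 difference -0.44 ± 0.07 SE, edgeR adjusted p = 2.66e-06). A list of 7 genes of parvalbumin neurons, around which perineuronal nets form (among them Pvalb and Vamp1, and none of them a matrix gene) fell in 7 of 7 cases (sums between 919.9 and 2034 CPM (median 1137) in TBI animals and between 1469 and 1942.6 CPM (median 1577) in sham animals). Over all rows tested, 45.9% were called lower. The part of these 7 genes' neurons in the lower Hapln4 was not tested. Hapln1, the more widely expressed link protein, was barely higher. Hapln1 lay between 69.6 and 100.4 CPM (median 76.03) in APOE4 TBI animals and between 72.6 and 88.4 CPM (median 82.6) in APOE3 TBI animals. In sham animals, Hapln1 lay between 59.96 and 84.04 CPM (median 73.1) with APOE4 and between 62.98 and 84.4 CPM (median 77.9) with APOE3. Hapln1 was 1.09-fold higher (log2 difference 0.13 ± 0.05 SE, edgeR adjusted p = 0.0230), a call that was lost without any of APOE4 TBI replicates 3 or 7, APOE3 TBI replicates 4 or 6, APOE3 sham replicate 2, APOE4 sham replicate 3 (log2 difference 0.07 to 0.10, adjusted p 0.0550 to 0.145). Vcan, versican, was the 1 hyalectan that the symbol rule found among the rows. Vcan lay between 29.4 and 72.5 CPM (median 40.7) in APOE4 TBI animals and between 28.4 and 53.9 CPM (median 40.03) in APOE3 TBI animals. In sham animals, Vcan lay between 31.7 and 43.5 CPM (median 36.96) with APOE4 and between 29.2 and 41.2 CPM (median 37.9) with APOE3. Vcan was 1.15-fold higher (log2 difference 0.20 ± 0.08 SE, edgeR adjusted p = 0.0211), and the call was lost without any of APOE4 TBI replicates 3 or 7, APOE3 TBI replicates 4, 6 or 8 (adjusted p 0.0543 to 0.0738).

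The small leucine-rich proteoglycans, which bind collagen fibrils and growth factors, rose in 3 of 3 cases. Bgn lay between 26.5 and 58.1 CPM (median 40.6) in APOE4 TBI animals and between 32.7 and 74.9 CPM (median 36.9) in APOE3 TBI animals. In sham animals, Bgn lay between 20.7 and 29.996 CPM (median 23.6) with APOE4 and between 20.3 and 30.8 CPM (median 24.6) with APOE3. 13 of 16 TBI animals lay above every sham for Bgn, biglycan, which was 1.68-fold higher (log2 difference 0.75 ± 0.13 SE, edgeR adjusted p = 5.18e-06). Lum lay between 7.08 and 13.4 CPM (median 10.3) in APOE4 TBI animals and between 7.16 and 19.7 CPM (median 11.6) in APOE3 TBI animals. In sham animals, Lum lay between 6.47 and 8.77 CPM (median 7.87) with APOE4 and between 5.53 and 10.1 CPM (median 7.74) with APOE3. For Lum, lumican, 9 of 16 did so, and it was 1.41-fold higher (log2 difference 0.49 ± 0.12 SE, edgeR adjusted p = 0.000610). Dcn, decorin, a proteoglycan that binds TGF-beta, was the most abundant of the 3 per kilobase of exon, with 28.7 ± 6.28 CPM per kilobase in TBI animals and 21.5 ± 3.95 in sham animals (SD, n = 16 and 14). It differed by 0.42 ± 0.09 on the log2 scale.

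Other genes of matrix production and sensing were counted from lists of known function. Over all rows tested, 94.1% were called, 48.2% higher and 45.9% lower, so being called is itself the background. All 12 measured enzymes of collagen folding and crosslinking rose (median log2 difference 0.42), among them P4ha3 (1.46 ± 0.14), a subunit of collagen prolyl 4-hydroxylase, Crtap (0.61 ± 0.12) and P3h2 (0.58 ± 0.12), which take part in prolyl 3-hydroxylation, and Pcolce (0.53 ± 0.15), an enhancer of procollagen cleavage. Of 33 other matrix glycoproteins and proteoglycans tested, 26 rose and 5 fell (median 0.39). Spp1, osteopontin, differed by 2.68 ± 0.29, Tgfbi by 1.23 ± 0.21 and Postn, periostin, by 0.97 ± 0.15.

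Of 5 measured genes of hyaluronan synthesis and turnover, 4 rose and 1 fell. Ptx3, which crosslinks hyaluronan, differed by 4.36 ± 0.41 on the log2 scale, Cd44, the main hyaluronan receptor, by 1.93 ± 0.20, Stab1 by 1.16 ± 0.11 and the synthase Has3 by -0.40 ± 0.12. Of 15 cell-surface proteoglycans and chondroitin sulphate enzymes, 11 rose and 3 fell (median 0.21), with syndecan Sdc4 at 0.66 ± 0.06 and the glypican Gpc3 at 0.39 ± 0.12.

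Among 13 genes listed as matrix receptors 12 rose and 1 fell (median 0.52). Lgals3, galectin-3, a lectin counted in that list, differed by 4.47 ± 0.36. The fibronectin receptor chain Itga5 differed by 0.95 ± 0.15, Itgb5 by 0.88 ± 0.07 and Cd36, a receptor for thrombospondin, by 0.69 ± 0.19. Of 16 other proteases and inhibitors 14 rose and 2 fell (median 0.62), with the broad protease inhibitor A2m at 4.24 ± 0.33, the lysosomal protease Ctss at 1.78 ± 0.11 and Plau, urokinase, at 1.09 ± 0.16. In the TGF-beta pathway, a known inducer of matrix genes, 6 of 7 measured genes rose and Ltbp1 did not pass. Tgfb1 differed by 0.97 ± 0.12, Tgfbr2 by 0.88 ± 0.08 and Tgfbr1 by 0.65 ± 0.08. All of these are log2 differences over both genotypes, and over all rows tested the median was 0.10. The counts that rose or fell stand beside 48.2% of all rows called higher and 45.9% lower.

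The matrix response differed between animals of the same group. The members' median log2 shift from the sham mean lay between 0.19 and 1.28 over TBI animals (median 0.47) and between -0.23 and 0.19 over sham animals. A single animal, APOE3 TBI replicate 8, held the highest level of 42 of the 67 genes, and APOE4 TBI replicate 6 that of 16. Replicate 8 also had the highest summed level of fibroblast markers (6000.5 CPM, of which Ptgds held 3921 CPM), of pericyte markers (513 CPM), of endothelial markers (601 CPM) and of astrocyte markers (22631 CPM). APOE4 TBI replicate 6 had that of microglia and macrophages (2275 CPM). Without APOE3 TBI replicate 8, 58 members were called over both genotypes, and Adamts10, Adamts6, Lama2, Lamb1, Lamc3 and Vcan were lost.

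Members varied more between animals than the listed rows at large. Their median coefficient of variation was 25.6% in APOE4 TBI animals (14.6% over all rows tested), 32.9% in APOE3 TBI animals (12.9%), 23.7% in APOE4 sham animals (9.997%) and 22.3% in APOE3 sham animals (10.4%). The part of counting error in this spread was not tested.

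**Figure D3:**
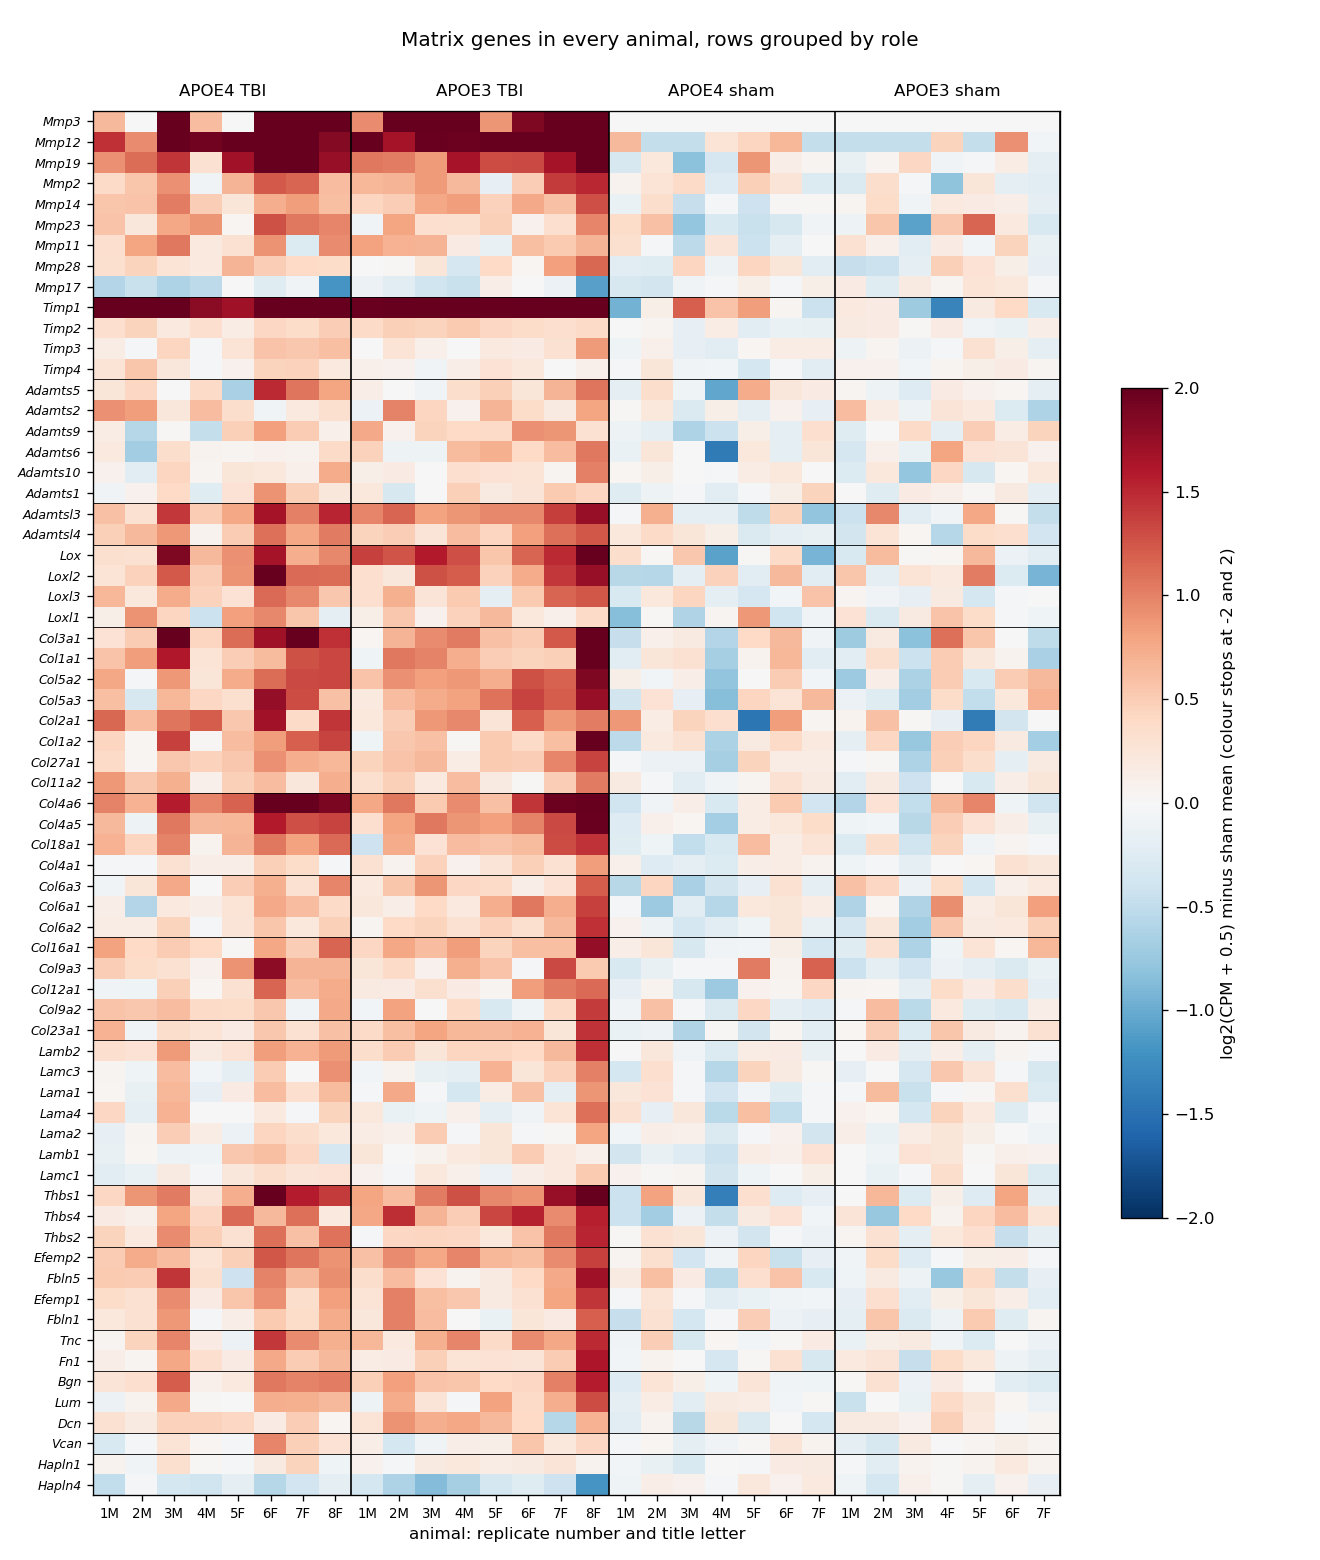
Level of each of the 67 matrix genes in each of the 30 animals, as log2(CPM + 0.5) minus the mean over sham animals, with colours stopped at ±2. Columns are animals, named by replicate and title letter, and rows are ordered by role. APOE3 TBI replicate 8 and APOE4 TBI replicate 6 are the strongest columns, and Hapln4 and Mmp17 are the rows that are lower after TBI.

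The injury response was seen in both genotypes. In APOE4 animals 47 members rose and 2 fell, where 64.8% of all rows tested were called (33.9% higher and 30.9% lower). In APOE3 animals 50 rose and 2 fell, where 72.3% of all rows were called (38% higher and 34.3% lower). The median log2 difference of the members was 0.54 in APOE4 and 0.54 in APOE3 animals. Without APOE3 TBI replicate 8, 40 members were called in APOE3 animals. In APOE4 animals 28 were called in shallow libraries alone and 18 in deep ones, and in APOE3 animals 25 in shallow libraries alone. Timp1 differed by 3.47 ± 0.61 on the log2 scale in APOE4 and by 4.55 ± 0.61 in APOE3 animals, and Mmp12 by 3.08 ± 0.47 and 3.79 ± 0.48 in APOE4 and APOE3 animals. Col4a6 differed by 1.70 ± 0.27 in APOE4 and 1.42 ± 0.27 in APOE3 animals, Col3a1 by 1.29 ± 0.32 and 1.21 ± 0.32, and Hapln4 by -0.40 ± 0.10 and -0.48 ± 0.10.

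No member's injury response was called different between the genotypes. The interaction gave 0 calls in edgeR, where 0% of all rows were called, and 0 with DESeq2 and with limma-voom. At an unadjusted p under 0.05 there was 1 member, Timp4, which differed by 0.33 ± 0.08 after TBI in APOE4 animals and by 0.04 ± 0.08 in APOE3 animals (interaction 0.29 (95% interval 0.05 to 0.53), unadjusted p = 0.0167, adjusted p = 0.999). At that threshold 1.84% of all rows passed. The intervals were wide for the genes with the greatest response: the APOE4 minus APOE3 difference in response was -1.07 (95% interval -3.19 to 1.05) for Timp1, -0.71 (95% interval -2.41 to 0.99) for Mmp12, 0.08 (95% interval -0.85 to 1.02) for Col3a1, -0.34 (95% interval -1.31 to 0.64) for Lox and 0.29 (95% interval -0.50 to 1.07) for Col4a6, all on the log2 scale. For the abundant Timp2 it was 0.07 (95% interval -0.09 to 0.23).

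Between the genotypes, over both injury states, 2 members were lower with APOE4 and none was higher, where 2.01% of all rows tested were called (1.19% higher and 0.819% lower). The members' share of 2 in 67 is near that background. Thbs4, whose levels in the 4 groups are given above, was 1.37-fold lower (log2 difference -0.45 ± 0.12 SE, edgeR adjusted p = 0.0328) with APOE4 (95% interval -0.69 to -0.21), and its APOE4 and APOE3 ranges overlapped. The call was lost without any of APOE4 TBI replicate 1, APOE3 TBI replicates 2 or 6, APOE3 sham replicates 1 or 3, APOE4 sham replicate 2 (adjusted p 0.0523 to 0.0643). Col23a1 was 1.28-fold lower (log2 difference -0.36 ± 0.10 SE, edgeR adjusted p = 0.0468) with APOE4 (95% interval -0.56 to -0.16), and lost its call in 21 of the 30 settings that left out 1 animal (adjusted p up to 0.0963). Without APOE3 TBI replicate 8 it differed by -0.29 (adjusted p = 0.0606, edgeR).

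Within the depth classes, Thbs4 differed by -0.50 in shallow libraries (edgeR adjusted p = 0.306) and by -0.41 in deep libraries (adjusted p = 0.412). Col23a1 differed by -0.36 in shallow libraries (adjusted p = 0.467) and by -0.36 in deep libraries (adjusted p = 0.349, edgeR). Neither was called within a class, while both log2 differences were close to those over all animals.

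The members next in order did not pass. Adamts9 lay between 6.73 and 18.5 CPM in APOE4 TBI animals and between 10.8 and 19.6 CPM in APOE3 TBI animals, and its genotype difference was -0.36 ± 0.11 (edgeR adjusted p = 0.0870). Hapln4 differed by 0.21 ± 0.07 (adjusted p = 0.111), Col6a1 by -0.29 ± 0.10 (adjusted p = 0.124), Dcn by -0.26 ± 0.09 (adjusted p = 0.161) and Timp2 by -0.10 ± 0.04 (adjusted p = 0.191, edgeR for each). The median over the members was -0.03, against -0.01 over all rows.

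In sham animals alone no member was called between APOE4 and APOE3 by edgeR, DESeq2 or limma-voom (0.168% of all rows by edgeR). There were 4 members at an unadjusted p under 0.05, which 5.77% of all rows reached, with Col9a3 at a log2 difference of 0.61 ± 0.21. Among TBI animals alone no member was called by any of the 3 tools (0.447% of all rows by edgeR), and 8 were at an unadjusted p under 0.05, which 11.2% of all rows reached. Thbs4 was the first of these, at -0.52 ± 0.15 (edgeR adjusted p = 0.139).

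**Figure D4:**
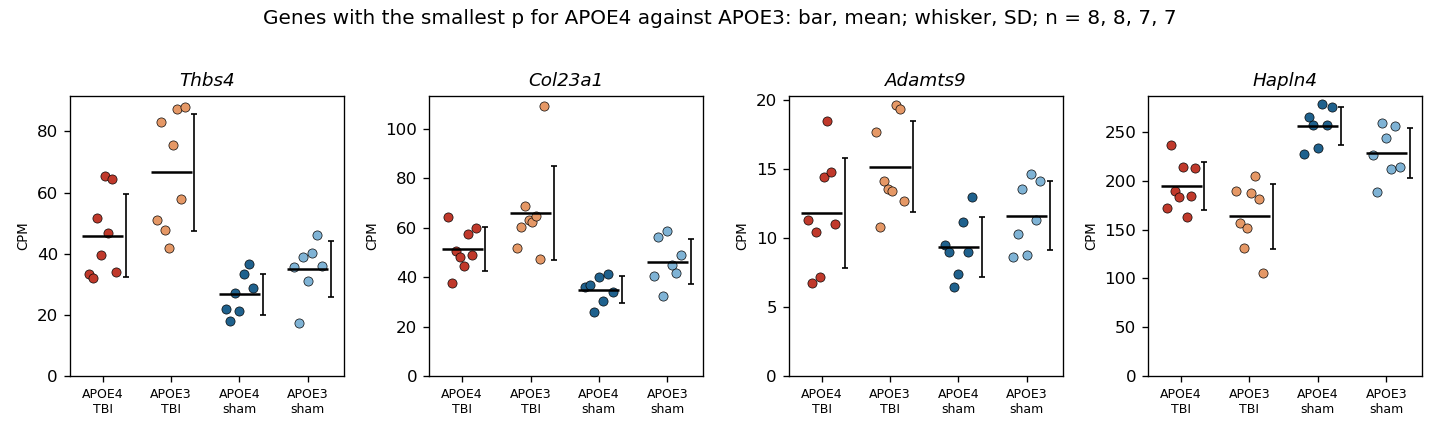
Level in CPM of Thbs4, Col23a1, Adamts9 and Hapln4 in each animal, in the order APOE4 TBI, APOE3 TBI, APOE4 sham and APOE3 sham (n = 8, 8, 7 and 7), with bars for means and whiskers for 1 SD. The genotypes overlap for each gene within each injury state.

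More matrix genes were called by the letter F or M in the titles than by genotype. Over all 30 animals, 24 members were higher in F than in M animals and none was lower, where 16.7% of all rows tested were called (10.1% higher and 6.59% lower). The members called came to 35.8% of the 67, their median log2 difference was 0.22, against 0.01 over all rows, and 60 of 67 lay above 0. APOE3 TBI replicate 8 and APOE4 TBI replicate 6, which held the highest level of 42 and 16 members, are both F animals. Leaving out either gave 20 calls, the lowest count with 1 animal left out. Leaving out both together was not tested. The count was 11 in shallow libraries alone and 10 with the contradictory libraries placed by their characteristics. In deep libraries alone edgeR called 0, with 15 at an unadjusted p under 0.05. Of the 24, 12 were collagen genes, out of 20 collagen genes among the members, and all 4 basement membrane collagens and 2 of the 3 type VI chains were among them. Within each genotype, the F animals also carry higher animal numbers in their titles than all M animals, so that the letter and whatever the numbering follows cannot be told apart.

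Col6a1 had the smallest p. Its level lay between 75.3 and 177 CPM (median 104) in F animals and between 40.7 and 89.7 CPM (median 69.7) in M animals, with little overlap. After TBI it lay between 82.7 and 177 CPM (median 113) in F and between 45.4 and 89.7 CPM (median 76.3) in M animals, and after sham surgery between 75.3 and 129.5 CPM (median 80.7) in F and between 40.7 and 69.7 CPM (median 45.6) in M animals. The F and M ranges overlapped after TBI and did not overlap in sham animals. Col6a1 was 1.61-fold higher (log2 difference 0.68 ± 0.10 SE, edgeR adjusted p = 0.000120) in F animals, and no single animal's removal ended the call. In shallow libraries alone the log2 difference was 0.68 (edgeR adjusted p = 0.00946) and in deep libraries alone 0.67 (adjusted p = 0.0576). Its upstream sequence is given as the strongest member of this comparison (chr10:76726045-76726294, minus strand, GRCm38.p6, 250 bases written 5′ to 3′), with the TGACTCA match in capitals, 90 to 84 bases upstream of the start.
Col6a1: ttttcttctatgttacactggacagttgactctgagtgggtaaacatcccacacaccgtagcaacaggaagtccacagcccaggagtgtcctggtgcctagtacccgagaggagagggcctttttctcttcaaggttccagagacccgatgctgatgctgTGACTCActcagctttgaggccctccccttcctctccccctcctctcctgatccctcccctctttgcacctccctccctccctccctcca

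Among fibrillar collagens, Col5a3 lay between 3.19 and 17.04 CPM (median 7.66) in F animals and between 2.36 and 8.56 CPM (median 5.43) in M animals, and was 1.68-fold higher (log2 difference 0.74 ± 0.15 SE, edgeR adjusted p = 0.00164). Col5a2 differed by 0.57 ± 0.13 on the log2 scale and Col27a1 by 0.40 ± 0.10. Col3a1 differed by 0.69 ± 0.22 but lost its call without APOE4 TBI replicates 4 or 7, APOE3 TBI replicates 1 or 8 (adjusted p 0.0521 to 0.0749). Among basement membrane collagens, Col4a6 lay between 2.52 and 23.6 CPM (median 7.30) in F and between 2.15 and 11.3 CPM (median 5.19) in M animals, so the ranges overlapped, and was 1.73-fold higher (log2 difference 0.79 ± 0.18 SE, edgeR adjusted p = 0.00409). Col4a5 differed by 0.53 ± 0.12, Col18a1 by 0.48 ± 0.13 and Col4a1 by 0.23 ± 0.06. Col12a1 differed by 0.50 ± 0.10, Col9a3 by 0.53 ± 0.14 and Col6a2 by 0.36 ± 0.10.

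Of the proteases, Mmp12 lay between 0 and 5.80 CPM (median 1.97) in F animals and between 0 and 2.53 CPM (median 0.841) in M animals and was 1.96-fold higher (log2 difference 0.97 ± 0.27 SE, edgeR adjusted p = 0.0140). Mmp19 differed by 0.64 ± 0.18 on the log2 scale and Mmp28 by 0.43 ± 0.13. Adamts9 differed by 0.36 ± 0.11 (call lost without APOE4 TBI replicate 6, adjusted p 0.0539), Adamts1 by 0.27 ± 0.08 (lost without any of APOE4 TBI replicates 4 or 6, APOE4 sham replicate 7, adjusted p 0.0512 to 0.0592) and Adamts5 by 0.48 ± 0.15 (lost without any of APOE4 TBI replicates 6 or 7, APOE3 TBI replicate 8, adjusted p 0.0522 to 0.0592). Timp3, Thbs4, Vcan and Lamb1 differed by 0.25 ± 0.06, 0.45 ± 0.12, 0.30 ± 0.08 and 0.26 ± 0.07 and kept their calls whichever animal was left out. Lamc3 (0.39 ± 0.12) lost its call without APOE4 TBI replicate 8 or APOE3 TBI replicate 8 (adjusted p 0.0533 to 0.0596), and Lum (0.35 ± 0.12) in 17 of the 30 settings (adjusted p up to 0.0889).

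By the same test, 1 of 13 fibroblast markers was higher in F animals, and 4 of 12 markers of microglia and macrophages and 3 of 12 astrocyte markers were higher, while 3 of 9 neuronal markers were lower. Over all rows tested, 10.1% were called higher and 6.59% lower, so the fibroblast count is near the background. Fibroblast marker sums lay between 2099.8 and 6000.5 CPM (median 2736) in F and between 1719 and 4618 CPM (median 2859) in M animals. Ptgds alone held 3921 CPM of the highest F sum and 2998 CPM of the highest M sum. Microglia and macrophage sums lay between 746 and 2275 CPM (median 1411) in F and between 683 and 1837 CPM (median 1243) in M animals. The part of these cells in the collagen differences was not tested.

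Split by injury, which was done after the comparison over all animals had been seen, 24 members were higher in F than in M animals after TBI and none was lower (median log2 difference 0.34, against 0.02 over all rows, of which 20.1% were called). In sham animals no member was called by edgeR, with 13 at an unadjusted p under 0.05, and 0% of all rows were called, with 7% at an unadjusted p under 0.05. The difference between these splits was itself tested: the injury by letter interaction gave 0 calls among the members and 0% of all rows, with 4 members (Adamtsl4, Thbs2, Thbs1 and Adamtsl3) and 8.58% of rows at an unadjusted p under 0.05. Adamtsl4 was the first, at 0.66 ± 0.21 on the log2 scale. The injury difference was called for 60 members higher and 2 lower in F animals (81.2% of all rows), and for 39 higher and 2 lower in M animals (53.4% of all rows). The members' median was 0.63 in F and 0.48 in M animals.

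**Figure D5:**
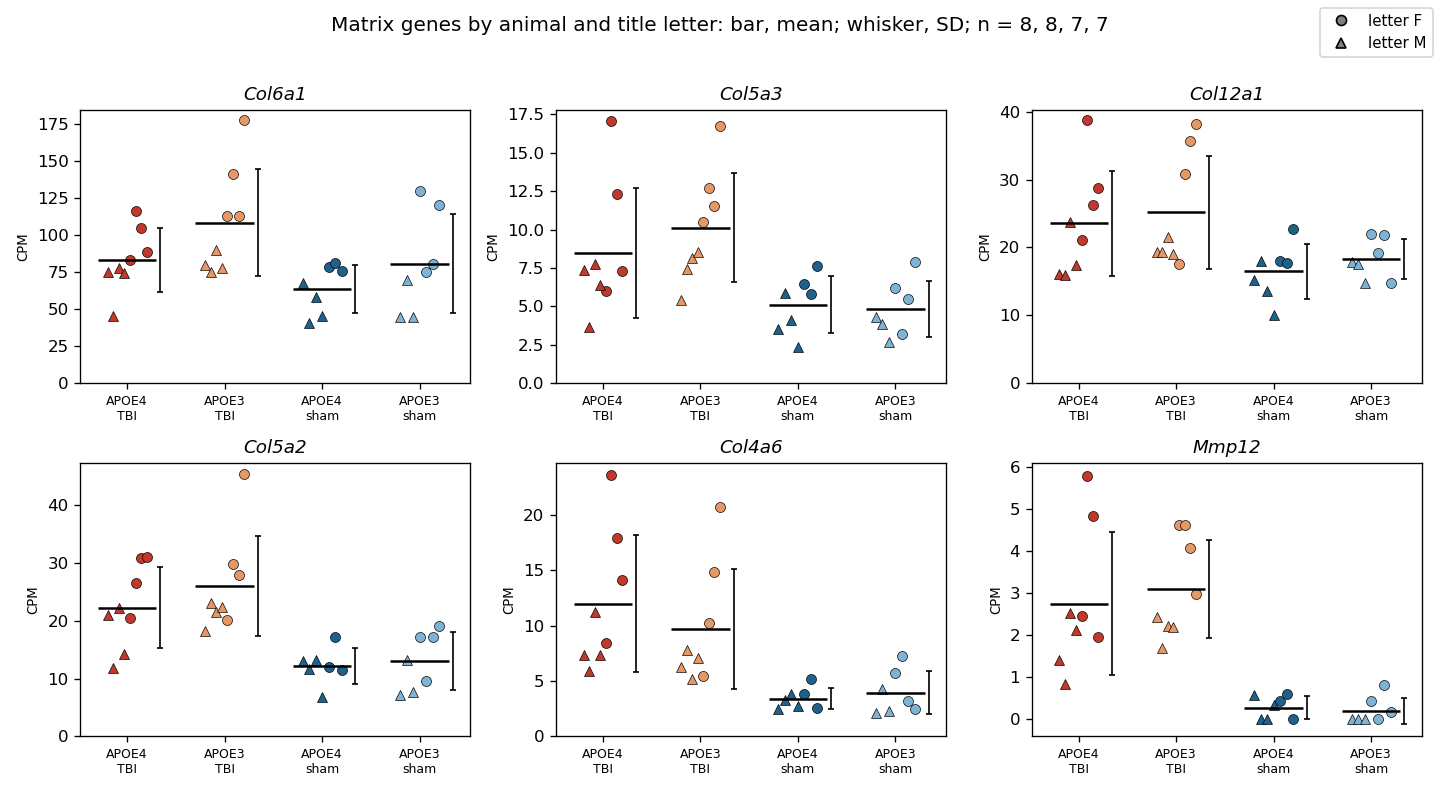
Level in CPM of genes that differed by title letter, per animal and group in the order APOE4 TBI, APOE3 TBI, APOE4 sham and APOE3 sham (n = 8, 8, 7 and 7), with circles for F and triangles for M animals and the bar for the mean of the whole group. In sham animals every circle lies above every triangle for Col6a1.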

How the data were processed

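Bulk RNA of 32 mouse libraries was measured. Per the file headers, the authors deposited raw counts per gene for each library, with their own log2 coefficient and p-value for TBI against sham. The rows had been kept by that p-value of the authors (highest 0.0502 over all listed rows, and 0.0488 among the members, for Lama1). These are unscaled whole numbers. Subread 1.5.0, edgeR 3.14.0 and mm10 are named per the submitters' processing notes, and the annotation and strand setting are not given in the sources used here. No UMIs are mentioned, so PCR copies may be counted. Totals cover the listed rows only and are not library depths.

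Groups came from the labels, and the titles name separate animals. The library E2073 (titled sham, described as TBI) and the library F1372 (titled APOE3, described as APOE4) entered no comparison. The tests used edgeR 4.0.16 under R 4.3.3 (TMM, quasi-likelihood, filterByExpr with a minimum count of 10, which dropped 211 rows), with Benjamini-Hochberg adjustment over the 5371 rows kept and a threshold of 0.05. Overall injury, genotype and letter effects came from 1 additive model, and effects within groups and the interaction from a model of 4 group means with the letter. Standard errors were derived from the test, as the absolute log2 difference divided by the square root of its quasi-likelihood F statistic. Intervals are at 95%, from these standard errors and a t distribution with the same degrees of freedom for every gene. The script was tested on simulated counts. Coordinates and promoters are RefSeq (GRCm38.p6), and exon lengths come from GENCODE on mm10.

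The members, roles, pathway and marker lists were chosen with earlier results of these data known. Values per group were to be given for the 2 members of each role with the greatest injury difference, for members called in the genotype, interaction or letter comparisons and for those at 0 in every sham. Up to 4 genes per list were to be named. After 24 members passed the letter test, those were given by letter instead, and Col1a2 and other members are named with their difference alone. Alternatives were DESeq2 1.42.0, limma-voom (limma 3.58.1), total-count scaling, no filter, no letter, the depth class as covariate or each class alone, both placements of the 2 disputed libraries, each genotype fitted alone and each animal left out. The splits by letter within injury states were added after seeing the data.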

Additional observations from a re-analysis of the deposited data

Results flagged for a closer look

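In 16 of 128 sets of values, 1 animal stood apart from the rest of its group by Dixon's criterion. Chance meets it in about 1 of 20 independent sets of normally distributed values. These sets share the same animals, and sets without spread, as for Mmp3 in sham animals, could not be flagged. The count of flags therefore cannot be set against that rate. In 10 of them it was APOE3 TBI replicate 8, with the next highest animal of its group given in brackets: Fn1 at 406 CPM (next 187), Lamb2 at 170.4 CPM (next 97.3), Col1a1 at 143 CPM (next 55.7), Col23a1 at 109 CPM (next 68.6), Col16a1 at 97.8 CPM (next 50.999), Col3a1 at 84.3 CPM (next 30.8), Bgn at 74.9 CPM (next 50.5), Col4a5 at 45.4 CPM (next 28.6), Efemp2 at 44.1 CPM (next 33.5) and Fbln5 at 38.4 CPM (next 19.7). APOE4 TBI replicate 6 stood apart for Col9a3 at 72.2 CPM (next 38.7), Thbs1 at 49.3 CPM (next 23.9), Mmp3 at 22.1 CPM (next 7.84) and Loxl2 at 8.70 CPM (next 3.24). APOE3 TBI replicate 4 stood apart for Mmp3 at 20.8 CPM (next 6.42) and APOE3 TBI replicate 7 for Col9a3 at 52.005 CPM (next 33.9995).

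The 2 libraries with contradictory labels entered no comparison, and their values were set beside those of the assigned animals. In the library E2073, 11 of the 67 members lay above every sham animal, 16 below every sham animal and 30 below every TBI animal. In the library F1372, 2 members (Adamts10 and Thbs4) lay above every sham animal, 12 below every sham animal and 39 below every TBI animal. Both had 0 counts of Mmp3 and of Mmp12.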

How the results depend on the processing

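No called member changed sign under any alternative run. Leaving out 1 animal at a time gave 57 to 66 called members for injury over both genotypes, 42 to 53 for APOE4, 40 to 54 for APOE3, 0 to 3 for genotype, 20 to 26 for the letter and 0 in every case for the interaction, the genotypes in sham and the genotypes after TBI. In shallow libraries alone the calls were 28 for injury in APOE4, 25 for injury in APOE3, 0 for genotype and 11 for the letter. In deep libraries alone they were 18 for injury in APOE4, 0 for genotype and 0 for the letter. For genotype, total-count scaling, limma-voom, the fit without the letter and placing the disputed libraries by characteristics gave 1 each, and placing them by title gave 0. Placing them by characteristics left 10 calls for the letter. Each depth class holds fewer animals by construction, and the cause of the shifts, within the depth classes or in other settings, was not tested. Injury over both genotypes gave 48 to 67 calls over all settings other than left-out animals. Total-count scaling moved the median of all rows to 0.19 and of the members to 0.67 on the log2 scale. No paired analysis was possible because the numbers in the titles name single animals. The letter comparison was not run without the letter term. In shallow libraries alone 64 members passed the filter on low counts, and in deep libraries alone 67.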
